A study of Mus musculus with 4 samples.

Results

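IGKC, IGLC2, IGLC3 and IGLL5 are human genes of the immunoglobulin light chain constant region, measured here in the blood and injured spinal cord of humanised mice with or without spinal cord injury (SCI). They are 4 of the 33538 human genes in the count tables, with the identifiers ENSG00000211592 (IGKC), ENSG00000211677 (IGLC2), ENSG00000211679 (IGLC3) and ENSG00000254709 (IGLL5). They were examined in barcodes with over 50% of their UMIs (unique molecular identifiers, each standing for 1 captured transcript) on human genes. B cells were barcodes with at least 1 MS4A1 UMI, at least 1 CD79A UMI and no CD3D, CD3E or CD3G UMI. Plasma cells had at least 2 MZB1 UMIs and at least 1 TNFRSF17 UMI, and barcodes that met both rules were counted as plasma cells. These rules took 2658 B cells and 400 plasma cells from 18106 human barcodes.

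An antibody pairs heavy chains with light chains, and a light chain is either kappa or lambda. A developing B cell usually rearranges the kappa locus first and the lambda locus if kappa fails, and most B cells then keep a single light chain type (allelic and isotypic exclusion). IGKC is the single kappa constant gene, whereas the lambda locus holds several constant genes in tandem, of which IGLC2 and IGLC3 encode nearly identical protein and IGLL5 is a gene of the same locus related to the surrogate light chain gene IGLL1. Plasma cells secrete antibody and hold far more light chain transcript than B cells.

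The scRNAseq libraries came from huNSG-SGM3 mice, which carry Prkdcscid and IL2rgtm1Wjl on the NOD.Cg background with the transgene Tg(CMV-IL3,CSF2,KITLG)1Eav (MloySzJ line). They lack their own lymphocytes and make human IL3, CSF2 and KITLG from a CMV promoter. All hosts had been engrafted with human CD34+ umbilical cord blood cells and were aged 15 weeks according to the labels. The 4 libraries were blood of naïve mice (no treatment, male hosts), blood of sham mice (T9 laminectomy, male hosts, day 7), blood of SCI mice (T9 spinal cord injury, pooled male and female hosts, day 7) and the injured spinal cord of SCI mice (pooled male and female hosts, day 7). Live human CD45+ cells were sorted from pooled animals, with a magnetic step before sorting for the cord. There was 1 library for each condition, so no p-value was computed between conditions. The 95% exact intervals given for shares and log2 differences between libraries (binomial) and for counts (Poisson) cover counting error only. Batch of mice and condition cannot be told apart. Host sex cannot be told apart from condition where SCI blood is compared with naïve or sham blood.

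The naïve, sham, SCI blood and SCI cord libraries held 6713, 4972, 6283 and 138 human barcodes, with a median of 3656, 5201, 4634 and 8570 human UMIs. Pairs of libraries shared between 0 and 16 barcode sequences, and 1 B or plasma cell barcode was shared between any pair. The gates gave 1190 naïve, 568 sham, 892 SCI blood and 8 SCI cord B cells, and 381, 7, 12 and 0 plasma cells. In B cells of the blood, none of 10 B cell markers was at 0 and their summed level was between 22140 and 22393 CPM (counts scaled to a common library total). In T cells of the blood (at least 2 CD3 UMIs and none of the 4 gating genes of B and plasma cells) it was between 520 and 645 CPM. The list includes MS4A1 and CD79A, which the gates required in B cells and excluded from T cells. Part of this contrast was thus set in advance. The summed level of 10 plasma cell markers, among them the gating genes MZB1 and TNFRSF17, was 23667 CPM in naïve, 15340 CPM in sham and 16460 CPM in SCI plasma cells. The B cell markers reached 6067 CPM in sham and 10981 CPM in SCI plasma cells against 1081 CPM in naïve plasma cells, so that the plasma gate took cells of a different make-up in these libraries. A further 165, 79 and 165 blood barcodes with MS4A1 and CD79A UMIs did not count as B cells because they also held a CD3 UMI. The plasma gate had no such rule, and 59 naïve, 0 sham and 1 SCI blood plasma cells held a CD3 UMI.

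Most B cells held UMIs of 1 light chain type. A cell was called kappa or lambda when it held at least 10 light chain UMIs, with at least 80% of them from IGKC (kappa) or from IGLC2, IGLC3 and IGLL5 together (lambda). Naïve blood held 450 kappa and 583 lambda B cells, a lambda share of 56.4% (interval 53.4 to 59.5%). Sham blood held 221 kappa and 293 lambda B cells, a share of 57.0% (52.6 to 61.3%). SCI blood held 332 kappa and 441 lambda B cells, a share of 57.1% (53.5 to 60.6%). The 3 intervals overlapped, and no difference in the lambda share of B cells was detectable at this depth. These shares cover called cells only. They leave out 92 naïve, 38 sham and 52 SCI blood B cells with fewer than 10 light chain UMIs. The V gene UMIs of these left-out cells were 36 IGLV and 1 IGKV, so the shares may miss lambda cells. Of the 8 cord B cells, 2 were lambda, a share of 25% with an interval of 3.19 to 65.1% that takes in the blood values.

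**Figure D1:**
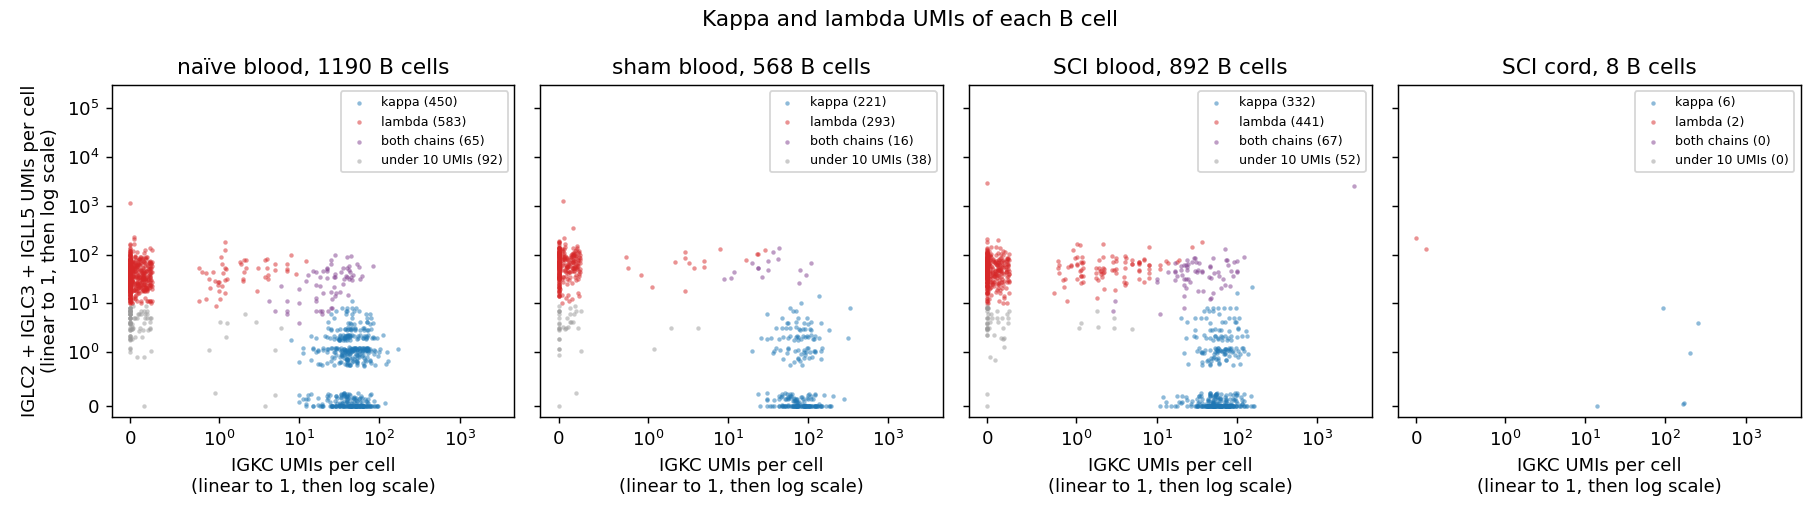
IGKC UMIs (x axis) against the sum of IGLC2, IGLC3 and IGLL5 UMIs (y axis) in each B cell of the 4 libraries, on axes that are linear to 1 and logarithmic beyond, with values under 5 spread slightly to show overlapping cells. Kappa cells lie along the lower right and lambda cells along the left edge of each panel, and the numbers of cells per call are given in the panels (450 kappa and 583 lambda in naïve blood).

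Cells with both chains were few. They made up 5.92% (4.60 to 7.48%) of naïve, 3.02% (1.74 to 4.86%) of sham and 7.98% (6.23 to 10.0%) of SCI blood B cells with at least 10 light chain UMIs. The median cell of this kind held 25 kappa and 31 lambda UMIs in naïve blood, 32 and 50.5 in sham blood, and 32 and 43 in SCI blood. Scrublet, which scores barcodes for resemblance to simulated doublets, marked 2 of the 148 such cells in blood. Such marks can miss barcodes that join cells of the same type, and whether these cells were doublets was not tested. In kappa cells the median number of light chain UMIs was 44 (naïve blood), 77 (sham blood) and 59 (SCI blood). In lambda cells it was 39, 64 and 52, below the kappa median in each library. Median depth followed the same order of libraries (3374, 5659 and 5050.5 human UMIs in kappa cells).

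The variable genes, which the call did not use, sorted with the constant genes. Over the 3 blood libraries, kappa B cells held 148 IGKV and 27 IGLV UMIs, whereas lambda B cells held 17 IGKV and 388 IGLV UMIs. The IGLV part of the V gene UMIs was thus 15.4% (10.4 to 21.6%) in kappa and 95.8% (93.4 to 97.5%) in lambda cells. In cells with both chains, 22 UMIs were IGKV and 47 were IGLV. V gene UMIs are sparse in this kind of library, which reads the 3′ end of transcripts, and 290 of 1317 lambda cells held an IGLV UMI.

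IGLL5 behaved differently from IGLC2 and IGLC3. It was counted in 5.18% (3.90 to 6.74%) of 1003 kappa, 3.80% (2.83 to 4.97%) of 1317 lambda and 8.78% (4.76 to 14.6%) of 148 B cells of the blood with both chains. Of the 182 blood B cells that had fewer than 10 light chain UMIs, 44.0% (36.6 to 51.5%) held it. Per 100 cells, IGLL5 UMIs numbered 5.88 in kappa, 5.92 in lambda and 66.5 in the cells under 10 light chain UMIs. These cells also held 36 IGLV UMIs against 1 IGKV UMI. By library, IGLL5 was present in 39.1% of the naïve, 52.6% of the sham and 46.2% of the SCI cells of this kind, against 2.92%, 5.46% and 3.85% of lambda cells. No lambda B cell had at least 80% of its lambda UMIs on IGLL5. The most IGLL5 UMIs in a lambda B cell of the blood was 4, whereas a call needs at least 10 light chain UMIs. In naïve blood, 2 of 373 lambda plasma cells had at least 80% of their lambda UMIs on IGLL5. IGLL5 overlaps the constant gene IGLC1 in the human genome, and the IGLC1 row held 0 UMIs in the B, plasma and T cells of every library. How the counting tool divided reads between overlapping genes was not tested.

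Other light chain genes were counted in a small number of cells. IGLC7 had at least 10 UMIs in 10 of the 182 B cells under 10 light chain UMIs and in 2 lambda cells, but in no kappa cell. IGLC6 had at least 10 UMIs in 6 lambda cells. The surrogate light chain gene IGLL1 had 12 UMIs in 2 naïve B cells and none in sham or SCI blood B cells, while VPREB1, its partner, was found in 16, 14 and 11 B cells. VPREB3, a related gene kept on in immature B cells, was found in 397 naïve, 270 sham and 383 SCI blood B cells. In the cord, 1 B cell held 45 IGLL1 UMIs and VPREB3 was found in all 8 B cells.

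**Figure D2:**
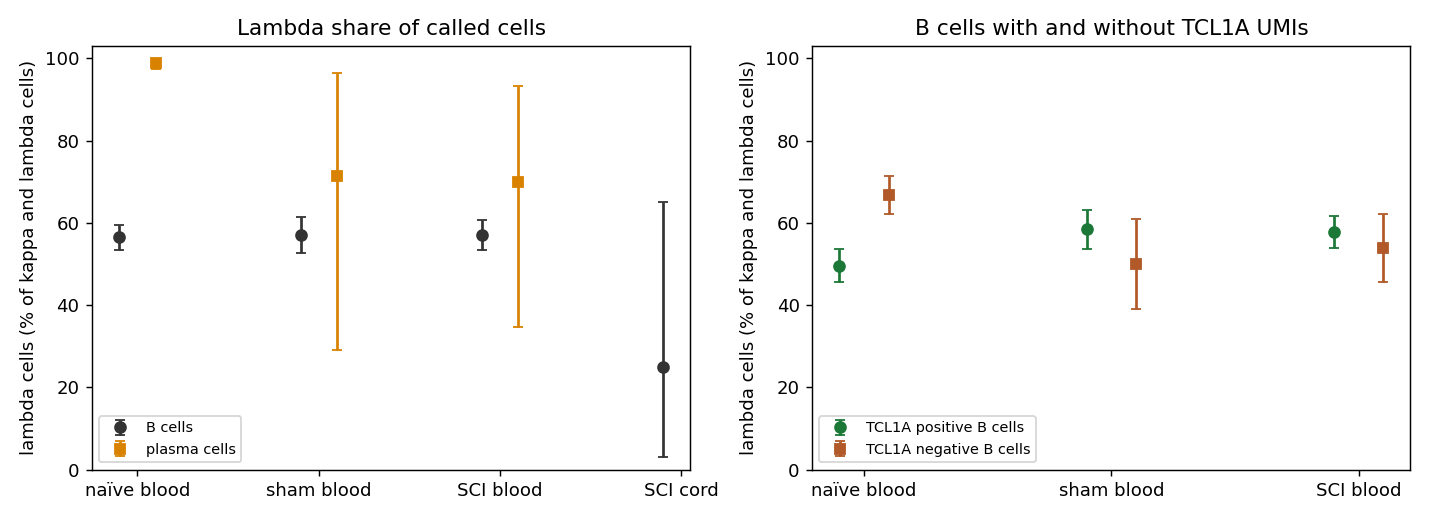
Lambda cells as a percentage of kappa and lambda cells, with 95% exact binomial intervals, for B and plasma cells by library (left) and for blood B cells with and without TCL1A UMIs (right). B cells sit at 56.4, 57.0 and 57.1% in the 3 blood libraries, naïve plasma cells at 98.9%, and naïve TCL1A negative B cells above the TCL1A positive ones.

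Lambda shares differed between subsets of naïve B cells. TCL1A marks immature and naïve B cells. In naïve blood the lambda share was 49.6% (45.6 to 53.6%) of TCL1A positive and 66.8% (62.0 to 71.4%) of TCL1A negative cells, and the intervals did not overlap. In sham blood it was 58.5% (53.6 to 63.2%) and 50% (39.1 to 60.9%). In SCI blood it was 57.8% (53.8 to 61.7%) and 54.0% (45.7 to 62.2%), so that the order of the subsets was the opposite of that in naïve blood, with overlapping intervals. CD27, a memory B cell marker, split naïve B cells further: 108 of 132 called CD27 positive cells were lambda, a share of 81.8% (74.2 to 88.0%), against 52.7% (49.4 to 56.0%) of CD27 negative cells. The CD27 positive share was 52.9% in sham and 50% in SCI blood, from 34 and 48 called cells. Among B cells with at least 3 UMIs of IGHG, IGHA or IGHE genes, naïve blood had a lambda share of 77.1% (68.0 to 84.6%), sham blood 42.6% (29.2 to 56.8%) and SCI blood 63.0% (48.7 to 75.7%). Such UMIs do not make a cell class-switched. IGHM was the leading heavy chain gene in 446 of 450 kappa and 578 of 583 lambda B cells of naïve blood.

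Plasma cells of naïve blood were almost all lambda. Of 381, 373 were called lambda, 4 kappa and 4 both, a lambda share of 98.9% (97.3 to 99.7%). Their intervals did not overlap those of the B cells of the same library. The lambda cells held a median of 1447 light chain UMIs each, from 725 at the 10th percentile to 2963 at the 90th. Plasma cells carried 86.9% of the 746570 UMIs of the 4 genes in naïve blood, B cells carried 7.12% and barcodes that met no gate carried 5.36%. In sham blood 5 of 7 plasma cells were lambda, a share of 71.4% (29.0 to 96.3%). In SCI blood 7 of 10 called plasma cells were lambda, a share of 70% (34.8 to 93.3%).

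In the SCI library the lambda share of plasma cells depended on cells with few light chain UMIs. In the sham library most plasma cells with many light chain UMIs were lambda as well. The 4 sham plasma cells with at least 1000 light chain UMIs held 1256, 2517 and 5068 UMIs (lambda) and 7582 UMIs (kappa). The 3 SCI plasma cells of that kind were kappa, with 2649, 4759 and 3391 light chain UMIs. Scrublet marked 3 of these 4 sham and all 3 of these SCI cells, and 11 of the 294 naïve plasma cells at that level. The 6 lambda cells of SCI blood below 500 light chain UMIs held between 35 and 137 of them, and each also held MS4A1 UMIs. With at least 1000 light chain UMIs, 290 naïve plasma cells were lambda, 2 kappa and 2 both. IGHM, the heavy chain of IgM, was the leading heavy chain gene in 372 of the 373 lambda plasma cells of naïve blood. It also led in all 7 called sham plasma cells and in all 10 called SCI plasma cells.

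Lambda cells split by constant gene. IGLC2 and IGLC3 are nearly identical, so the counting could divide reads of 1 transcript between them, and their separate counts are uncertain. In naïve blood, 35.7% (31.8 to 39.7%) of lambda B cells had at least 80% of their lambda UMIs on IGLC2, 9.95% (7.64 to 12.7%) had them on IGLC3, and 54.4% were mixed. In sham blood the IGLC2 share was 45.1% (39.3 to 50.9%), the IGLC3 share 12.3% (8.76 to 16.6%) and the mixed share 42.7%. In SCI blood they were 44.9% (40.2 to 49.7%), 15.0% (11.8 to 18.6%) and 40.1%. The naïve interval overlapped neither other interval for the mixed share, the sham but not the SCI interval for the IGLC2 share, and both for the IGLC3 share.

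**Figure D3:**
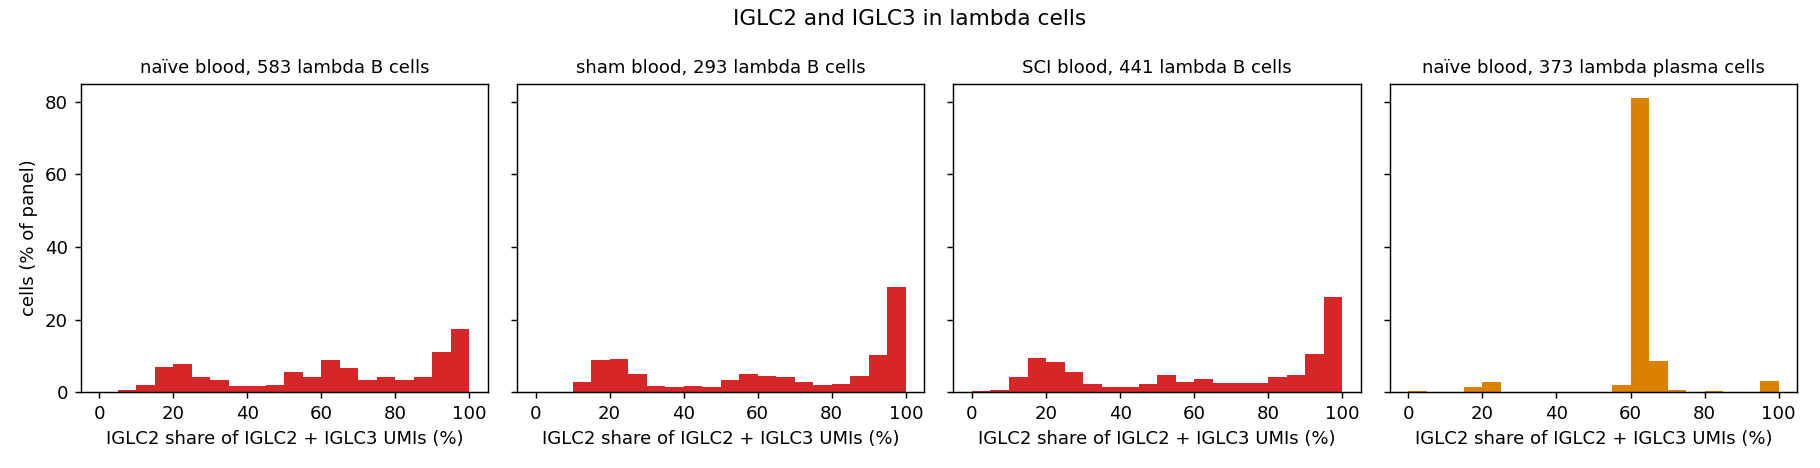
Distribution of the IGLC2 share of IGLC2 and IGLC3 UMIs (x axis, in percent) in lambda B cells of the 3 blood libraries and in lambda plasma cells of naïve blood, as the percentage of cells in each bin of the panel. B cells spread over low, middle and high shares in each library, whereas 334 of 373 naïve plasma cells lie between 60 and 70%.

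The split between IGLC2 and IGLC3 varied from cell to cell. The IGLC2 part of IGLC2 and IGLC3 UMIs was below 40% in 158 of 583 naïve lambda B cells and at or above 90% in 167. It lay between 60 and 70% in 90 naïve (15.4%, 12.6 to 18.6%), 25 of 293 sham (8.53%, 5.60 to 12.3%) and 27 of 441 SCI lambda B cells (6.12%, 4.07 to 8.78%). In naïve lambda plasma cells, 334 of 373 lay in that range, a share of 89.5% (86.0 to 92.5%). Of naïve lambda B cells, 36.1% of CD27 positive and 10.7% of CD27 negative cells lay in it. So did 22.6% of TCL1A negative and 9.06% of TCL1A positive ones. The part of these cells in the naïve subset differences was not tested beyond leaving them out. The range from 60 to 70% was chosen after the distribution had been seen. Leaving out the B cells in it, which removes lambda cells alone and so can only lower the share, gave a lambda share of naïve B cells of 52.3%.

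The same plasma cells shared a variable gene. IGLV7-43 took 2185 of the 2477 IGLV UMIs of naïve lambda plasma cells, a share of 88.2% (86.9 to 89.5%), and was found in 342 of the 373 cells. It was found in 324 of the 334 cells with 60 to 70% IGLC2 and in 18 of the 39 others. In naïve lambda B cells it was found in 14 of the 90 cells of that range (15.6%, 8.77 to 24.7%) and in 12 of the 493 others (2.43%, 1.26 to 4.21%). IGLV7-43 had 0 UMIs in the 568 sham B cells, which limits the share of such cells with a UMI to 0.528% (3 counts of 568, for counting error at this depth), and was present in 1 of 892 SCI B cells. It was present in 7 of 3939 naïve T cells. Among lambda B cells, the leading IGLV genes were IGLV7-43 and IGLV2-14 in naïve, IGLV4-69 and IGLV2-14 in sham, and IGLV3-25 and IGLV2-14 in SCI blood, the first with 35 of 138, 17 of 111 and 20 of 139 IGLV UMIs. In kappa B cells the leading IGKV gene was IGKV3-11 in naïve (14 of 61 UMIs), IGKV4-1 and IGKV3-15 in sham (7 of 46 each) and IGKV3-20 in SCI blood (12 of 41). Whether the naïve plasma cells descend from 1 cell was not tested.

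T cells, which do not make light chains, gave the background. In naïve blood 45.4% (43.9 to 47.0%) of 3939 T cells held a light chain UMI, against 4.22% (3.56 to 4.95%) of 3366 sham and 6.56% (5.83 to 7.36%) of 4144 SCI T cells. IGLC2 was present in 34.7%, 1.72% and 2.05% of T cells in naïve, sham and SCI blood. IGKC was present in 2.59%, 2.20% and 3.72%, and IGLL5 in none of them. Naïve T cells were the shallowest (median 3549 human UMIs, against 5069 and 4598). With each T cell thinned to 1000 UMIs, IGLC2 was found in 11.3%, 0.208% and 0.435%. No T cell held 10 light chain UMIs, and the highest value was 8. The mean naïve T cell held 0.445 IGLC2 and 0.165 IGLC3 UMIs, against medians of 6 and 2 over all naïve B cells.

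**Figure D4:**
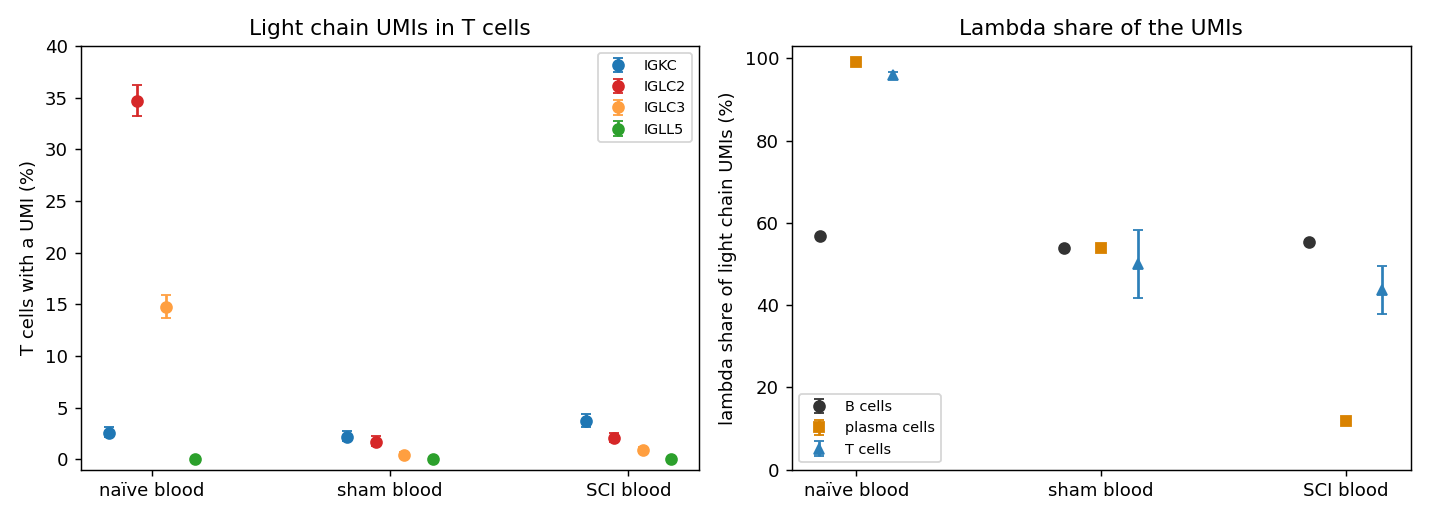
Percentage of T cells with a UMI of each light chain gene (left) and lambda share of light chain UMIs in B, plasma and T cells (right) for the 3 blood libraries, with 95% exact binomial intervals. IGLC2 and IGLC3 stand apart in naïve T cells at 34.7 and 14.8%, and the lambda share of naïve T cell UMIs (95.8%) lies near that of naïve plasma cells (99.1%).

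The lambda part of this background in naïve blood lay nearer to that of plasma cells than to that of B cells. Lambda genes supplied 95.8% (95 to 96.6%) of light chain UMIs in naïve T cells, against 99.1% in plasma cells and 56.7% in B cells of that library. In sham blood the values were 50% (41.7 to 58.3%) in T cells, 54.0% in plasma and 53.8% in B cells. In SCI blood they were 43.6% (37.7 to 49.6%) in T cells, 11.9% in plasma and 55.3% in B cells. These are shares of summed UMIs, and the sham and SCI plasma values rest on 7 and 12 cells. In sham blood 1 kappa cell held 7582 of 16576 plasma cell UMIs. In SCI blood 3 kappa cells held 2649, 4759 and 3391 of 12309. By cell, 71.4% of called sham and 70% of called SCI plasma cells were lambda. In naïve blood the ratio of the lambda genes in T cells lay apart from that in plasma and B cells. IGLC3 supplied 27.0% (25.3 to 28.8%) of IGLC2 and IGLC3 UMIs in naïve T cells, against 38.5% in plasma cells and 39.0% in B cells. After the T cell level at matched depth was subtracted from each B cell, the lambda share of B cells stayed within the interval given above in each library. In FCER1G and TYROBP positive cells of naïve blood, 1 barcode held 2060 of the 2181 light chain UMIs.

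Between libraries, the lambda genes differed by far more than IGKC when all human cells were summed. IGLC2 stood at 19023 CPM in naïve, 973 CPM in sham, 1058 CPM in SCI blood and 307 CPM in SCI cord. IGLC3 stood at 11801, 594, 709 and 22.7 CPM, and IGLL5 at 12.3, 4.54, 4.74 and 4.55 CPM. IGKC stood at 1452, 1350, 1878 and 832 CPM. Relative to naïve blood, IGLC2 was lower by a log2 difference of -4.29 in sham (-4.31 to -4.27) and -4.17 in SCI blood (-4.19 to -4.15). IGKC differed by -0.11 and 0.37 on the log2 scale, but by -0.55 and -0.071 without plasma cells and by -0.57 and -0.20 as a mean of the CPM of each cell. All 3 lambda genes were at least 2-fold lower in sham than in naïve blood, as were 2.78% of 14662 genes tested, and likewise in SCI blood, as were 4.5% of 14688 genes. IGLL5 was 0.18 higher in sham blood on the log2 scale when the CPM of each cell was averaged. Both comparisons use the same naïve library. Fewer cells of a type and less RNA per cell cannot be told apart in such sums, and naïve blood held 381 plasma cells against 7 and 12. Without plasma cells, the lambda sum differed from naïve blood by -1.68 in sham and -1.13 in SCI blood on the log2 scale. The naïve sum then still held barcodes that met no gate. They carried 5.36% of the UMIs of the 4 genes in naïve blood, beside 7.12% in B cells.

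**Figure D5:**
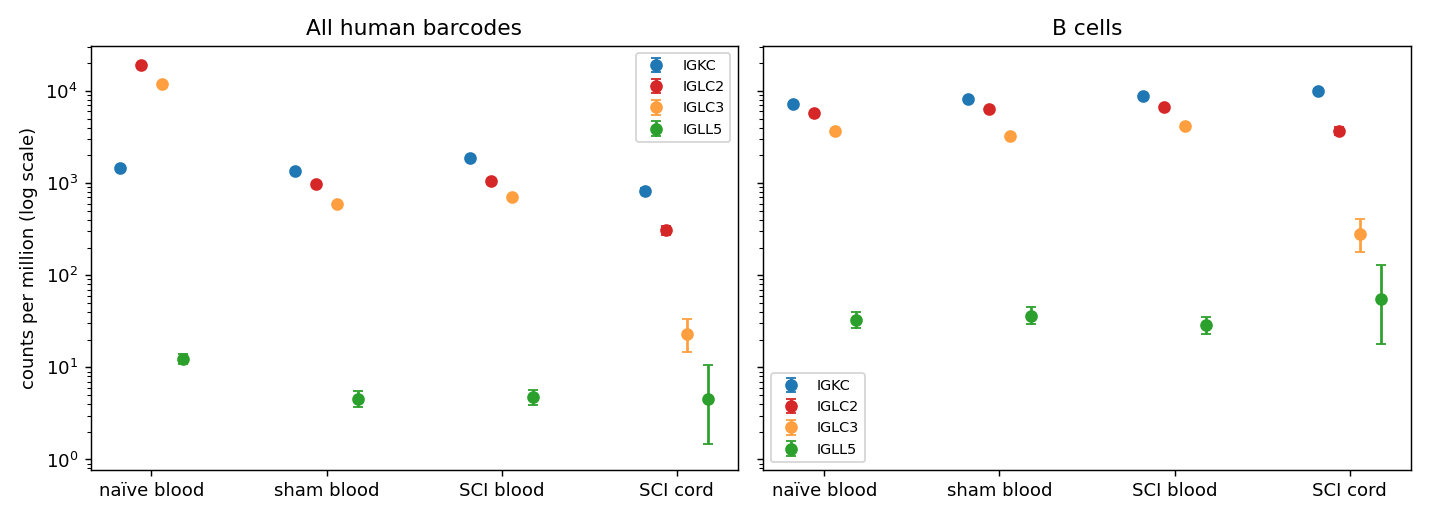
Level of each gene in CPM (log scale) over all human barcodes (left) and over B cells (right) in the 4 libraries, with 95% exact Poisson intervals, many smaller than the points. IGLC2 and IGLC3 are at 19023 and 11801 CPM in naïve blood over all barcodes and lie close together between blood libraries in B cells.

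Within B cells the differences between blood libraries were small. IGKC stood at 7210 CPM in naïve, 8261 CPM in sham and 8819 CPM in SCI blood. IGLC2 stood at 5738, 6339 and 6733 CPM, IGLC3 at 3676, 3238 and 4168 CPM, and IGLL5 at 32.6, 36.6 and 28.6 CPM. The log2 differences lay between -0.36 and 0.36 over the 4 genes and 3 pairs of blood libraries, and the intervals of IGLL5 held 0 in each pair. In SCI blood, 1 B cell with both chains held 5447 light chain UMIs and 1 lambda B cell held 2985, which weigh on the summed values. As a mean of the CPM of each cell, IGKC differed by -0.021 between SCI and sham B cells in place of 0.09.

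In the cord, light chain UMIs came almost entirely from 8 B cells, which held 98.6% of 1281. Over all human barcodes, IGKC was lower than in SCI blood by a log2 difference of -1.17 (-1.27 to -1.08), IGLC2 by -1.78 (-1.95 to -1.63) and IGLC3 by -4.93 (-5.59 to -4.40). IGLL5 had 5 UMIs in the cord. At least 2-fold lower levels were thus found for 3 of the 4 genes, as for 9.31% of 13507 genes tested. Within B cells only IGLC3 of the 4 genes was at least 2-fold lower, by -3.88 (-4.54 to -3.35), as were 12.5% of 9385 genes. The 25 IGLC3 UMIs behind this value came from 2 lambda cells, and its interval does not cover the sampling of cells. The 6 kappa cells of the cord held between 14 and 257 light chain UMIs. The 2 lambda cells held 118 and 207 IGLC2 UMIs, with 11 and 14 IGLC3 UMIs. No light chain UMI was found in the 60 cord T cells, which limits the share of such cells with a UMI to 5% (3 counts of 60, for counting error at this depth).

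Few genes other than light chain genes were called between kappa and lambda B cells. Their summed counts were compared within the 3 blood libraries with edgeR's quasi-likelihood test and library as a block, over 8980 genes. IGKC, IGLC2 and IGLC3 defined the calls and are given without a test. The CPM of single genes in this comparison came from edgeR and are not on the scale of those given above. IGKC averaged 13203 CPM in kappa and 104 CPM in lambda cells, IGLC2 168 and 7391 CPM, and IGLC3 43.3 and 4509 CPM. IGLL5, which also entered the lambda sum, averaged 12.8 CPM in kappa and 12.6 CPM in lambda cells. IGLC6, IGLC7 and IGLV2-14, also of the lambda locus, averaged 0.608 and 29.8, 0 and 26.0, and 0.451 and 7.53 CPM in kappa and lambda cells. They passed the filter on low counts through the lambda cells, so these levels too are given without a test. Outside the light chain loci, 2 of 8973 genes (0.0223%) were higher in lambda cells at an edgeR adjusted p under 0.05 and 0 (0%) were higher in kappa cells.

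These 2 genes were SRGN and CCL17. With sham blood left out, 49 genes outside the light chain loci were called, with naïve blood left out 13, with SCI blood left out 2, and by DESeq2 none (20 at an unadjusted p under 0.05). SRGN, the core protein of a granule proteoglycan, stood at 35.4 and 69.8 CPM in naïve kappa and lambda cells, 24.2 and 50 CPM in sham, and 34.3 and 72.8 CPM in SCI blood. It was higher in lambda cells in 3 of 3 libraries, by 1.03 on the log2 scale (SE 0.13, edgeR adjusted p = 0.00032). Without the barcodes marked by Scrublet the difference was 0.72 (edgeR adjusted p = 0.30), and without the library block it was 1.03 (edgeR adjusted p = 0.071). The summed level of 8 markers of FCER1G and TYROBP positive cells was 255 CPM in kappa and 146 CPM in lambda cells of naïve blood, 38.6 and 217 CPM in sham, and 30.6 and 201 CPM in SCI blood. That of 10 T cell markers was 249 and 209, 239 and 258, and 258 and 262 CPM, and the part of these cells in the SRGN difference was not tested. These marker sums used the CPM scale of the libraries, not the edgeR scale of SRGN. CCL17, a chemokine, stood at 39.8 and 73.5, 28.6 and 44.4, and 37.3 and 54.6 CPM, a log2 difference of 0.70 (SE 0.13, edgeR adjusted p = 0.0497) in 3 of 3 libraries. This call was lost with naïve blood left out (edgeR adjusted p = 0.30), with SCI blood left out (0.18), among TCL1A positive cells (0.93) and without the library block (0.999).

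Genes of B cell function showed no call in the comparison of all 3 libraries, but 3 of them were called under alternatives. None of 10 genes of the B cell receptor complex and its signalling was called, and their median log2 difference was -0.072, beside -0.0019 over all genes tested. CD79A, a signalling subunit of the receptor, stood at 1470 and 1384 CPM in kappa and lambda cells on average. None of 8 heavy chain genes tested was called, with a median of 0.23. IGHM stood at 4432 and 6587 CPM in naïve kappa and lambda cells, 3937 and 4378 CPM in sham, and 4138 and 4975 CPM in SCI blood. These summed levels were thus higher in lambda cells in 3 of 3 libraries. The median kappa and lambda cells held 15 and 18 IGHM UMIs in naïve, 22 and 21 in sham, and 20 and 18 in SCI blood. These medians were not adjusted for depth. The log2 difference of the summed levels was 0.33 (SE 0.067, edgeR adjusted p = 0.10). Without the barcodes marked by Scrublet, IGHM differed by 0.17 (edgeR adjusted p = 0.998). Over the alternatives its adjusted p ran from 6.2e-08 to 1.00, and edgeR called it in 4 of them: with no filter beyond 1 count (6.2e-08), with naïve blood left out (0.00026), with sham blood left out (3.9e-05) and among TCL1A positive cells (0.018).

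None of 6 stage genes tested was called, with a median of -0.16. CD27 stood at 21.8 and 75.1 CPM in naïve kappa and lambda cells, 16.9 and 12.4 CPM in sham, and 19.3 and 18.6 CPM in SCI blood. Its log2 difference was 0.83 (SE 0.28, edgeR adjusted p = 0.94). EdgeR called CD27 with no filter beyond 1 count (adjusted p = 0.0022) and with sham blood left out (2.1e-05), and the difference was -0.20 with naïve blood left out. IGHG1, a switched heavy chain gene, was likewise called with sham blood left out (log2 difference 1.40, edgeR adjusted p = 0.0022) and stood at -0.56 with naïve blood left out. TCL1A stood at 821 and 497 CPM in naïve, 800 and 857 CPM in sham, and 767 and 803 CPM in SCI blood. CD27 and TCL1A thus differed between the chains in naïve blood by more than in the other libraries, and this difference between libraries was not tested. At an unadjusted p under 0.05 stood 1 heavy chain gene (IGHM), 1 stage gene (CD27) and 0 receptor genes, beside 458 of 8973 genes (5.1%) outside the light chain loci. None of 5 secretory genes tested was called. UNG, a DNA repair enzyme, was the only gene of recombination and editing that passed the filter on low counts, with 5.57 and 7.14 CPM and no call. DESeq2 called none of the genes of these lists.

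The genes most like IGKC in level across 11 cell groups (B, plasma, T and FCER1G and TYROBP positive cells, by library, with at least 50 cells) were OSBPL10, CXXC1, FCRL5, CD79A and BLNK, with Pearson r from 0.98 to 0.99 on log2(CPM + 1). Those most like the lambda sum were IFNAR1, TOR3A, MZB1, IRAK1 and GNG7, with r from 0.90 to 0.93. The groups share libraries and 1 of them, naïve plasma cells, is the highest point of the lambda sum, at 146034 CPM against 1340 CPM for IGKC. CD79A and MZB1 were gating genes of B and plasma cells and were excluded from T cells, so their likeness was partly set by the gates. These are descriptions over 3230 genes, without a test.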

How the data were processed

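Live human CD45+ cells were profiled with 10x 3′ v3 chemistry. The authors counted UMIs per gene and barcode with Cell Ranger (version 3.1.0 per the file headers) on a combined human and mouse reference (hg38 and mm10 per the submitters' notes), and the deposited values are raw counts with no normalisation. Strand, clonotype and read level data were not used here.

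Barcodes with over 50% human UMIs were kept. The genes and lists were chosen with earlier results of these data known. The named genes are the 4 members, fixed lists of light chain, recombination, receptor, heavy chain, stage and secretory genes, up to 10 called genes outside the light chain loci, the leading V genes and the 5 most similar genes. CPM of libraries and cell classes, and the marker sums, used the human total without ribosomal protein and mitochondrial genes. CPM of single genes in kappa and lambda B cells came from edgeR instead. That scale used TMM factors and the genes that passed its filter, ribosomal and mitochondrial genes included. The log2 ratios between libraries added 0.5 to each count, over genes with at least 20 counts in a pair of libraries. No doublets were removed. As an alternative, barcodes with the highest Scrublet scores (scanpy 1.11.5, 0.8% per 1000 barcodes) were left out, since its automatic thresholds marked 0, 4, 192 and 10 barcodes.

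Kappa and lambda B cells were summed per blood library and compared with edgeR 4.0.16 (quasi-likelihood test, TMM, Benjamini-Hochberg adjustment, R 4.3.3), with DESeq2 1.42.0 as an alternative. The block pairs the kappa and lambda cells of 1 library. Their deviations from the group means correlated at 0.18, 0.051 and 0.31 across genes in the naïve, sham and SCI libraries. The scripts were tested on simulated data. Python 3.11.15, scipy 1.17.1 and matplotlib 3.10.9 were used for the rest.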

Additional observations from a re-analysis of the deposited data

Results flagged for a closer look

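The lambda share of TCL1A negative B cells minus that of TCL1A positive B cells was 17.2 percentage points in naïve blood, -8.45 in sham blood and -3.78 in SCI blood, that is, it had the opposite sign in the naïve library. There was 1 library for each condition and this difference between libraries was not tested.

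Signal was found in light chain genes outside the 4 examined. In blood, 10 B cells with fewer than 10 light chain UMIs held at least 10 IGLC7 UMIs, and 6 lambda B cells held at least 10 IGLC6 UMIs, against 0 kappa B cells for either gene.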

How the results depend on the processing

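Over the alternatives run, 122 values of the main results kept their direction and stayed near the reported value, 59 moved and 3 changed sign. The cause of these moves was not tested. The lambda share of B cells moved only with subsets: 49.6% in TCL1A positive and 66.8% in TCL1A negative naïve cells, 50% and 0% in TCL1A negative sham and cord cells (the latter 2 cells), and 52.3% in naïve cells without the lambda cells at 60 to 70% IGLC2 (which removes lambda cells alone), alternatives chosen after seeing the data. For plasma cells, at least 5 MZB1 and 3 TNFRSF17 UMIs gave 100% in sham (1 cell) and 0% in SCI blood (3 cells, all marked by Scrublet), leaving out barcodes marked by Scrublet gave 100% in SCI blood (6 cells), and at least 500 light chain UMIs (added after seeing the data) gave 25% (4 cells). With at least 90% of the UMIs from 1 gene, the IGLC2 share of lambda B cells was 28.3%, 38.2% and 36.5% in naïve, sham and SCI blood.

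Among log2 ratios over all human barcodes, sham against naïve blood moved for IGKC to -0.17 with TMM factors, -0.20 without immunoglobulin genes in the total, -0.57 as a mean of per cell CPM and -0.55 without plasma cells. The lambda sum moved to -4.36, -4.39, -3.15 and -1.68 in the same order, and to -4.32 with a filter at 3 median absolute deviations. SCI against naïve blood moved for IGKC to 0.29 and 0.28 and turned to -0.20 and -0.071, and for the lambda sum to -4.20, -4.21, -2.83, -1.13 and -4.16. SCI against sham blood moved to 0.37 (per cell mean) and 0.50 (filter) for IGKC, and to 0.32 (per cell mean) and 0.55 (without plasma cells) for the lambda sum. IGLL5 turned to 0.18 in sham against naïve blood as a per cell mean.

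Within B cells, per cell means gave 0.037 (IGKC) and 0.10 (lambda sum) for sham against naïve, 0.016 and 0.14 for SCI against naïve, and -0.021 and 0.040 for SCI against sham blood, with IGLC2 at -0.040. TMM gave 0.21 for the lambda sum in SCI against sham blood and turned IGKC of cord against SCI blood to -0.072.

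T cells thinned to 1000 UMIs held IGKC in 0.816%, 0.386% and 0.774% and a lambda gene in 15.2%, 0.297% and 0.580% in naïve, sham and SCI blood. In FCER1G and TYROBP positive cells both values were 3.11% in sham and 4.35% in SCI blood.

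Between kappa and lambda B cells, where 8 genes were called with the light chain genes included and 2 without them, 60 genes were called with no filter beyond 1 count (50 outside the light chain loci), 5 without the library block (0, with 266 at an unadjusted p under 0.05) and 4 by DESeq2 (0, with 20). Leaving out 1 library gave 7 to 56 calls (2 to 49). Without barcodes marked by Scrublet, 1 gene outside the loci was called. Plasma cells of sham and SCI blood and B cells of the cord were too few to narrow the intervals.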
